A study of Mus musculus with 18 samples.

Results

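Treg cells from mice that overexpress miR-24 were compared with Treg cells from mice that overexpress miR-23, a neighbour of miR-24 in the same microRNA cluster. The miR-24 Tg group and the miR-23 Tg group held 3 libraries each, 6 of the 18 RNA-seq libraries of the study, and the comparison was read across every gene that reached 1 RPKM in at least 3 of the 18 libraries. RPKM divides the reads of a gene by its transcript length and by the depth of the library. That rule kept 11520 of the 23953 entries of the authors' table, and it used no difference between the groups. All animals are given as C57BL/6, and all cells as sorted CD4+CD25hi Treg cells. The overexpression is described as specific to T cells, and the series title names a CD4cre driver, so other T cells of these mice carried the transgene as well as the Treg cells. The 3 control libraries, which carry the genotype label WT Tg and are called WT here, are given as the background level beside the compared groups. The other libraries of the study came from Treg cells that overexpress miR-27 or the whole cluster, and from Treg cells that lack both miR-23 clusters. They counted in the filter and in the spread of the model, and their levels are not compared here. The animals' age, the way the transgenic lines were built, and whether each library came from its own animal are not given in the sources used here, so the p-values measure the spread between libraries within all 6 groups.

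MicroRNAs are short RNAs that guide Argonaute proteins to messenger RNAs and lower their stability or translation. Most of the targeting is read from the seed, a short stretch near the 5′ end that pairs with matching letters in the 3′ untranslated region (UTR) of a transcript. miR-23, miR-27 and miR-24 are made from a shared primary transcript, yet their seeds differ, so each can act on its own set of transcripts. Treg cells are CD4 T cells that restrain other immune cells and depend on the transcription factor Foxp3. Resting Treg cells recirculate through lymphoid organs, and effector Treg cells carry tissue-homing receptors and suppressive molecules.

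The mature microRNAs are shown because the seed, in capitals (bases 2 to 8), is what sets the compared genotypes apart. They are taken from RefSeq for GRCm38.p6.
mmu-miR-24-3p: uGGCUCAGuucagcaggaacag
mmu-miR-23a-3p: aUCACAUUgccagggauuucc
The DNA letters that pair with these seeds are CTGAGCC for miR-24 and AATGTGA for miR-23, and these were the sites searched for in 3′ UTRs, on the transcribed strand. A longer match adds an A after the site.

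The microRNA loci on chromosome 8 followed the labels. Mir24-2 (GRCm38 chr8:84208815-84208921) was listed at 7999, 22325 and 10166 RPKM in the miR-24 Tg libraries, and at 32.9, 28.3 and 36.0 RPKM in the miR-23 Tg libraries. Mir23a (chr8:84208518-84208592) was listed at 31554, 31028 and 38276 RPKM in the miR-23 Tg libraries, against 0, 830.6 and 80.8 RPKM with miR-24 Tg. The groups did not overlap at either locus, and an exact two-sided permutation test over 3 against 3 libraries gave its smallest possible p of 0.1 for each. Mir27a, which neither group overexpresses, overlapped, with 37.8 to 671.2 RPKM in miR-24 Tg and 107.3 to 216.9 RPKM in miR-23 Tg (exact permutation p = 0.5). The libraries were made for long RNA, so these values count reads over the hairpin loci and not mature microRNA, and the 2 loci cannot be read as equal or unequal doses.

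Transcripts that define T cells and Treg cells were abundant in all 6 libraries. Foxp3 was at 291, 286 and 236 RPKM in miR-24 Tg and at 243, 215 and 249 RPKM in miR-23 Tg, and Il2ra, the CD25 chain used for the sort, lay between 155 and 216 RPKM. Neither gene differed beyond the test (limma, adjusted p of 0.447 and 0.434). Library 1 of miR-24 Tg stood apart by its markers of other cells. Its B cell markers summed to 993.2 RPKM, against 410.2 and 287.4 RPKM in the other miR-24 Tg libraries and 309.1 to 445 RPKM in miR-23 Tg. Its myeloid markers summed to 668 RPKM, against 350.6 to 439.3 RPKM in the other 5. Library 2 of miR-24 Tg stood apart by immediate-early genes, which summed to 6219 RPKM against 1916 and 2395 RPKM in its group and 4601 to 5203 RPKM in miR-23 Tg, and by the dissociation and stress list, at 3303 RPKM against 1245 to 2450 RPKM. Y-linked transcripts separated the libraries by sex: Ddx3y was at 38.4 to 45.1 RPKM in library 1 of miR-24 Tg and libraries 1 and 2 of miR-23 Tg, and at 0 to 0.0847 RPKM in the other 3. In bulk samples, fewer cells of a type and less RNA per cell cannot be told apart.

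The test was a limma model on log2(RPKM + 0.5) over all 18 libraries, and calls were made at a Benjamini-Hochberg adjusted p under 0.05. Log2 differences below are miR-24 Tg minus miR-23 Tg on that scale, with the standard error (SE); the scale understates the change of low genes. In all, 849 genes were higher in miR-24 Tg (7.37% of those tested) and 748 were lower (6.49%). The median log2 difference was 0.55 over the genes that were higher and -0.45 over those that were lower, and 96 and 59 of them differed by at least 2-fold. The 3 libraries of one group did not overlap the 3 of the other for 1588 of the 1597 called genes, and for 4174 (36.2%) of all tested genes. In the same model, 1034 genes (8.98%) differed between miR-24 Tg and WT and 41 genes (0.356%) between miR-23 Tg and WT. Those comparisons share the WT libraries, so they are set side by side here gene by gene only. Without library 1 of miR-24 Tg, 390 genes were higher and 426 lower. Without library 1 of miR-23 Tg the counts were 370 and 303, and without its library 2 they were 399 and 371.

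**Figure D1:**
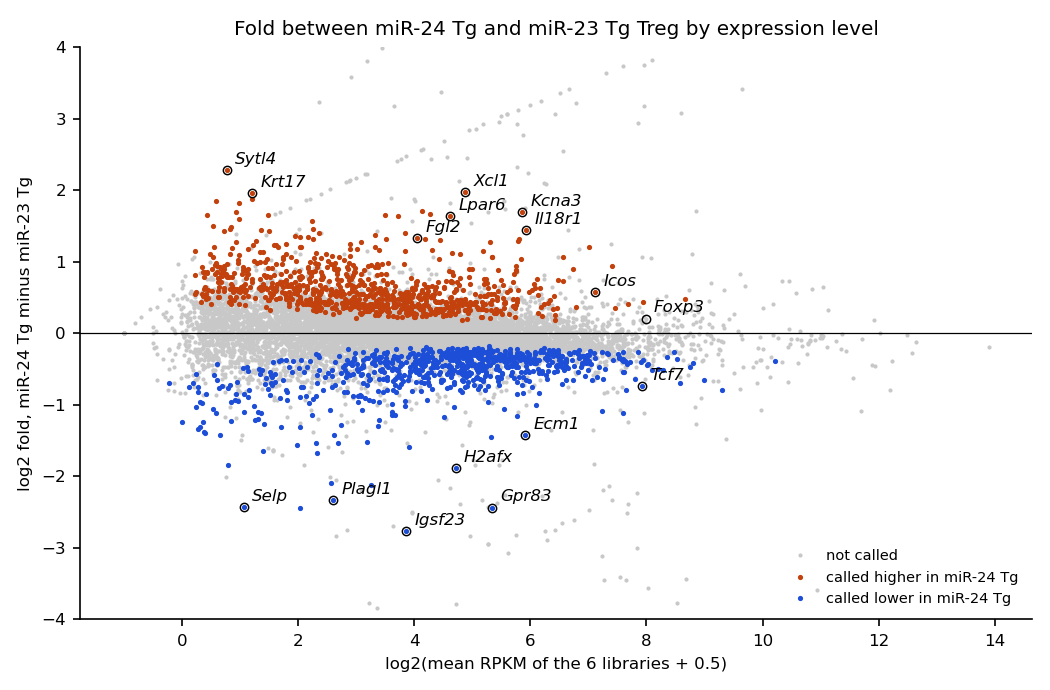
Each dot is one of the tested genes: the x axis is log2 of the mean RPKM of the 6 libraries plus 0.5, and the y axis the log2 difference, miR-24 Tg minus miR-23 Tg. Coloured dots are the 849 genes called higher and the 748 called lower; 43 genes, all small RNA genes except Ndufs5, differ by 4 or more and lie outside the axis.

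Genes that hold a miR-24 site leaned to lower values in miR-24 Tg, and genes that hold a miR-23 site leaned to higher values. A 3′ UTR of at least 50 bases was annotated for 10577 tested genes (GENCODE, GRCm38; the longest 3′ UTR of each gene), of which 7.58% were called higher and 6.88% lower. Of the 1558 genes with a miR-24 site and no miR-23 site, 191 (12.3%) were lower and 78 (5.01%) were higher, and their median log2 difference was -0.06. Of the 1270 genes with only a miR-23 site, 207 (16.3%) were higher and 31 (2.44%) were lower, with a median of 0.12. The 7290 genes with neither site split evenly, with 466 higher (6.39%) and 472 lower (6.47%) and a median of -0.02. The 459 genes with both sites had 51 higher and 34 lower. Leaving out 1 of the 6 libraries at a time left 92 to 148 genes lower and 35 to 64 higher with only a miR-24 site, and 96 to 168 higher and 10 to 31 lower with only a miR-23 site; the fewest main-direction calls came without library 1 of miR-23 Tg. These shares were described and not tested.

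The shares also differed with the number of sites. Genes with 1 miR-23 site were higher in 14.7% of cases and those with 2 or more in 24.3% (51 of 210), with medians of 0.10 and 0.20. For miR-24, 11.6% of the genes with 1 site and 14.9% of those with 2 or more (45 of 302) were lower, at the same median of -0.06. Genes with 2 or more sites also had longer 3′ UTRs than those with 1 site. The medians were 2978 against 1927 bases for miR-23 and 2741 against 1775 for miR-24. Number of sites and length were not separated here. The longer match gave 17.3% higher among 637 genes that hold it for miR-23 and not for miR-24. It gave 11.4% lower among 822 genes that hold it for miR-24 and not for miR-23. Such genes could still hold a shorter site of the other microRNA. The median of the 822 genes was -0.024, near the -0.017 of the genes without a longer match, of which 6.75% were lower. Sites of miR-27, with the seed match ACTGTGA, which neither group overexpresses, served as a comparison. Of the 1009 genes with a miR-27 site and neither other site, 83 (8.23%) were higher and 57 (5.65%) were lower. Of the 6281 genes with no site of the 3, 6.1% were higher and 6.61% lower. The medians were 0.042 and -0.030, so genes with a miR-27 site also leaned to higher values. Their 3′ UTRs were longer, at a median of 1781 against 723 bases. Set against WT, the genes with only a miR-24 site had a median of -0.05 in miR-24 Tg and 0.01 in miR-23 Tg, and those with only a miR-23 site had 0.06 in miR-24 Tg and -0.05 in miR-23 Tg.

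The length of the 3′ UTR moved with the direction of change. Its median was 1708 bases for the genes called higher, 939 for those called lower and 1129 for those not called. The genes were divided by length into 3 equal classes. Among the shortest 3′ UTRs (50 to 683 bases), 19.5% of the genes with only a miR-24 site were lower, against 7.07% of those with neither site. In the middle class (684 to 1807 bases) the shares were 16.6% and 7.10%, and among the longest they were 7.86% and 4.26%. For genes with only a miR-23 site, 14.3%, 12.8% and 18.6% were higher from the shortest to the longest class, against 4.29%, 7.02% and 9.67% with neither site. The difference between the site classes was present in each of these 3 length classes, and for miR-24 sites it was smallest among the longest. Site genes still had longer 3′ UTRs than genes with neither site inside each class, so length was not held fixed. In the shortest class the medians were 481 bases with only a miR-24 site, 404 with only a miR-23 site and 322 with neither. In the longest class they were 2956, 3070 and 2560 bases, and over all lengths 1932, 2126 and 822 bases.

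**Figure D2:**
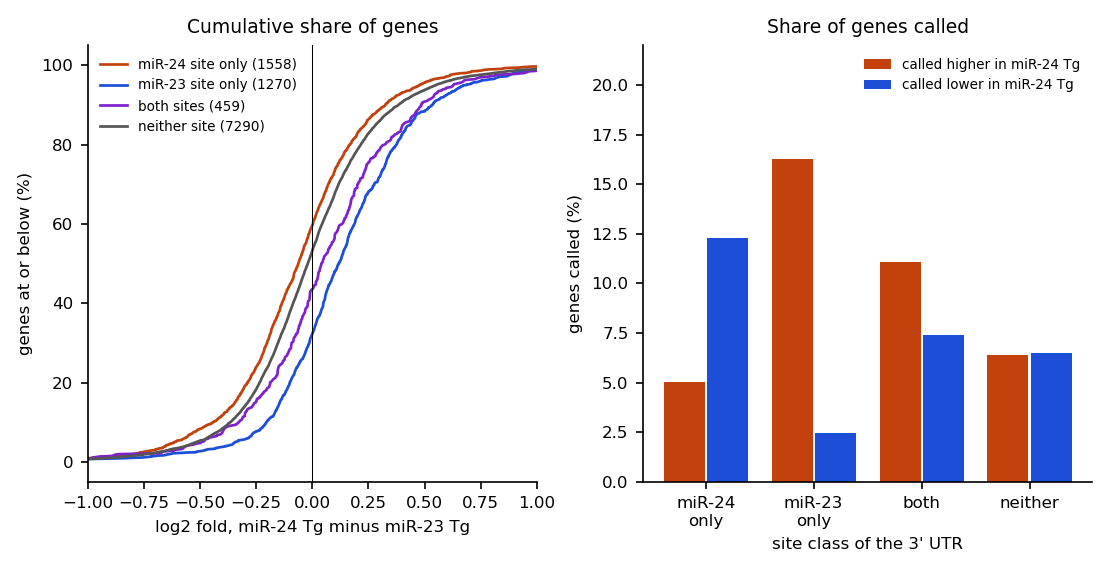
Left, the cumulative percentage of genes (y axis) at or below each log2 difference, miR-24 Tg minus miR-23 Tg (x axis), for the 4 site classes; the miR-24 curve lies to the left of the curve without sites and the miR-23 curve to its right. Right, the percentage of each class called higher or lower, with 12.3% lower for miR-24 sites only and 16.3% higher for miR-23 sites only.

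The site genes with the smallest p that were lower with miR-24 are printed with 1 site of the 3′ UTR each, the first with the longer match or, where there is none, the first of all, the letters pairing with the seed in capitals together with the following A where it is present. H2afx is added because it was among the largest falls.
Ecm1: gtcaccCTGAGCCtcagag
Tsta3: acagtatccagccacCTGAGCCAtatgc
Frmd8: agagcagccagtgcaCTGAGCCAtctct
Eif2b2: ggaggggaggccagcCTGAGCCctcagt
Sptlc2: cagtgtgtggcctttCTGAGCCAattcc
Aars: gcgcgcgccgggctgCTGAGCCAggcca
H2afx: ccctcacagaaagagCTGAGCCActtcg
The Ecm1 stretch is shorter because its site starts at base 7 of a 3′ UTR of 93 bases, and it spans GRCm38 chr3:95734221-95734239 (minus strand). The printed stretch of Tsta3 spans chr15:75924834-75924861 (minus strand), with the site at chr15:75924840-75924846. That of Eif2b2 spans chr12:85226221-85226248 (plus strand), with the site at chr12:85226236-85226242. Frmd8 holds 4 miR-24 sites, Aars 3, and Sptlc2 and H2afx 2 each; Sptlc2 and H2afx also hold 1 miR-23 site.

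Ecm1, which encodes a secreted matrix protein that Treg cells express strongly, was at 29.7, 33.1 and 33.1 RPKM in miR-24 Tg and at 90.3, 86.5 and 84.6 RPKM in miR-23 Tg. All miR-24 Tg libraries lay below all miR-23 Tg libraries, with a log2 difference of -1.43 (SE 0.12, limma adjusted p = 2.22e-05). Both groups were below WT, where Ecm1 averaged 140.2 RPKM, with log2 differences from WT of -2.10 and -0.67 (adjusted p = 3.95e-07 and 0.0269). Tsta3, an enzyme of GDP-fucose synthesis, was at 20.0, 18.5 and 21.2 RPKM against 35.2, 38.3 and 33.6 RPKM with miR-23 Tg. Its log2 difference was -0.83 (SE 0.09, adjusted p = 0.000149), and WT, at 33.8 ± 1.55 RPKM (SD, n = 3), was level with miR-23 Tg.

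Further miR-24 site genes were also lower in miR-24 Tg than in both other groups. Frmd8, a FERM-domain protein that stabilises the iRhom sheddase complex, averaged 71.0 RPKM in miR-24 Tg, 116.1 RPKM in miR-23 Tg and 118.2 RPKM in WT (log2 difference -0.71). Eif2b2, a subunit of a translation initiation exchange factor, averaged 27.6, 44.0 and 39.7 RPKM in that order (-0.66). Sptlc2, a subunit of the enzyme that starts sphingolipid synthesis, averaged 11.9, 17.7 and 19.2 RPKM (-0.55). The alanyl-tRNA synthetase gene Aars averaged 16.97, 29.2 and 23.5 RPKM (-0.77). In each of these 4 the groups did not overlap, and the call was kept under every alternative setting tried.

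The site genes of miR-23 with the smallest p, which were lower with miR-23 and so higher in miR-24 Tg, are printed in the same way.
Sh3bgrl: aacaagcataatgaaAATGTGAAcatgg
Pyhin1: gcatttccatgagtcAATGTGAgtacat
Lpar6: aattatgatttaaatAATGTGAtatatc
8430419L09Rik: tgtggatactttggaAATGTGAAtctta
Fgl2: atacaattttagccaAATGTGAgtccct
Pex11a: caattgtttcccataAATGTGAAggtga
The printed stretch of Sh3bgrl spans GRCm38 chrX:109160298-109160325, with the site itself at chrX:109160313-109160319. Those of the next genes span, for Pyhin1, chr1:173646507-173646534, for Lpar6 chr14:73239870-73239897 and for Fgl2 chr5:21376926-21376953, and all 4 are on the plus strand. Lpar6 and 8430419L09Rik hold 3 miR-23 sites each, the others 1, and Lpar6 also holds 1 miR-24 site.

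Sh3bgrl, a small SH3-binding thioredoxin-fold protein, was at 66.3, 68.3 and 72.3 RPKM in miR-24 Tg and at 35.5, 38.7 and 38.3 RPKM in miR-23 Tg, with no overlap (log2 difference 0.87, SE 0.07, limma adjusted p = 2.22e-05). WT lay between them at 56.0 ± 0.883 RPKM (SD, n = 3), and miR-23 Tg was lower than WT by a called difference of -0.57 (adjusted p = 0.00488). Pyhin1, an interferon-inducible nuclear protein, gave the same picture with 66.8 RPKM on average in miR-24 Tg, 37.4 in miR-23 Tg and 54.5 in WT. Its difference from WT was -0.53 in miR-23 Tg (adjusted p = 0.0175) and 0.29 in miR-24 Tg (adjusted p = 0.0261). The uncharacterised gene 8430419L09Rik was also lower in miR-23 Tg than in WT (-0.73, adjusted p = 0.0175). For Lpar6, Fgl2 and Pex11a the called difference from WT was in miR-24 Tg (1.45, 1.3 and 0.90), while miR-23 Tg differed from WT by -0.18, -0.04 and -0.31 without passing the test.

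The 12 largest falls and rises were taken from the called genes without overlap, leaving out small RNAs such as Mir23a, predicted genes, clones and receptor segments. Igsf23, an immunoglobulin superfamily member (chr7:19937305-19950756), was at 4.53, 2.66 and 2.66 RPKM against 26.9, 24.7 and 22.5 RPKM in miR-23 Tg. Gpr83, a G protein-coupled receptor long used as a Treg marker, was at 14.3, 7.48 and 15.9 RPKM against 73.1, 63.0 and 66.2 RPKM. Selp, which encodes the adhesion molecule P-selectin, was at 0.131 to 0.201 RPKM against 2.75 to 3.20 RPKM. The groups lay far apart for all 3 genes, with log2 differences of -2.77, -2.44 and -2.43 (limma adjusted p = 2.22e-05, 0.000632 and 2.22e-05). In WT these genes averaged 19.4, 87.0 and 2.72 RPKM, so miR-24 Tg was the group that departed from the control.

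Further falls of this size included Plagl1, a zinc-finger transcription factor, at 1.46, 1.55 and 1.46 RPKM against 8.65, 8.54 and 11.9 RPKM (log2 difference -2.34, adjusted p = 4.3e-05). Prr7, a transmembrane adaptor, fell by 2.12 on the log2 scale, Gabrr2, a subunit of a GABA receptor, by 2.10, Khdc1a, a KH-domain protein, by 1.84, and Pstpip2, an F-BAR membrane protein, by 1.65. None of these 5 holds a miR-24 site in its longest 3′ UTR. H2afx, the histone variant phosphorylated at DNA breaks, was at 12.3, 7.88 and 11.8 RPKM against 49.9, 40.2 and 32.3 RPKM (-1.89, adjusted p = 0.000951). WT lay between at 22.2 ± 2.28 RPKM (SD, n = 3), and H2afx was called lower in miR-24 Tg than in WT (-1.05, adjusted p = 0.0303), with 0.85 for miR-23 Tg (adjusted p = 0.189).

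For 2 of the falls the miR-24 Tg level was near that of WT. The transcript AA465934 was at 7.43, 7.67 and 5.86 RPKM in miR-24 Tg, near the 6.97 ± 1.49 RPKM of WT (SD, n = 3), and at 21.5, 22.3 and 22.5 RPKM in miR-23 Tg. Its log2 difference was -1.60 (adjusted p = 0.00145), and that of miR-23 Tg from WT was 1.62 (adjusted p = 0.0175). Gzmk, a granzyme of memory T cells, averaged 2.09 RPKM in miR-24 Tg, 7.01 in miR-23 Tg and 1.69 in WT, and miR-23 Tg differed from WT by 1.76 without passing the test (adjusted p = 0.0981). Its call (-1.68, adjusted p = 0.0212) was lost in 6 alternative settings, among them leaving out either of libraries 1 and 2 of each group. Pet117, a cytochrome c oxidase assembly factor, was near 0 in libraries 2 and 3 of miR-24 Tg but at 4.98 RPKM in library 1, beside 5.33 to 5.78 RPKM in miR-23 Tg, and its call (adjusted p = 0.0417) was lost in 9 settings.

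Rises of like size were seen in miR-24 Tg. Sytl4, which encodes the granule-docking protein granuphilin (chrX:133936385-133981812), was at 1.91, 2.33 and 2.76 RPKM against 0.066, 0.0850 and 0.0829 RPKM in miR-23 Tg. Its log2 difference of 2.28 (SE 0.22, limma adjusted p = 5.86e-05) was the largest of the 12 rises, at a low level of expression. Xcl1, the chemokine lymphotactin, was at 38.5, 56.5 and 44.6 RPKM against 10.4, 12.96 and 10.8 RPKM (1.97, SE 0.42, adjusted p = 0.00807), with 7.12 ± 2.62 RPKM in WT (SD, n = 3). Ccl1, the ligand of the Treg receptor Ccr8, was at 20.8, 26.2 and 40.8 RPKM against 8.50, 8.52 and 8.73 RPKM (1.66, adjusted p = 0.00693). In each of these 3 genes the lowest miR-24 Tg library was above the highest miR-23 Tg library.

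Kcna3, the potassium channel Kv1.3 of T cells, was at 100.9, 86.5 and 74.2 RPKM against 35.5, 15.9 and 33.0 RPKM (1.69, adjusted p = 0.00505). Lpar6, a receptor for lysophosphatidic acid, was at 42.9, 34.9 and 32.0 RPKM against 10.6, 13.01 and 10.6 RPKM (1.63, adjusted p = 0.000173). Gprin3, a G protein-interacting protein, averaged 25.9 against 8.18 RPKM (1.70). The remaining rises were at or below 4 RPKM in every library for the keratin Krt17 (1.96), the tetraspan protein Lhfpl1 (1.87), the leucine-rich repeat protein Lrrn3 (1.84), the interferon-induced gene Ifi44 (1.82) and the semaphorin Sema6d (1.69). Of these, Ifi44 lost its call in 10 settings. Lilrb4, an inhibitory receptor, averaged 16.7 against 4.94 RPKM (1.65, adjusted p = 0.013), but it has a near-identical neighbour, Gp49a (1.57, adjusted p = 0.0415), with which its reads could be shared.

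**Figure D3:**
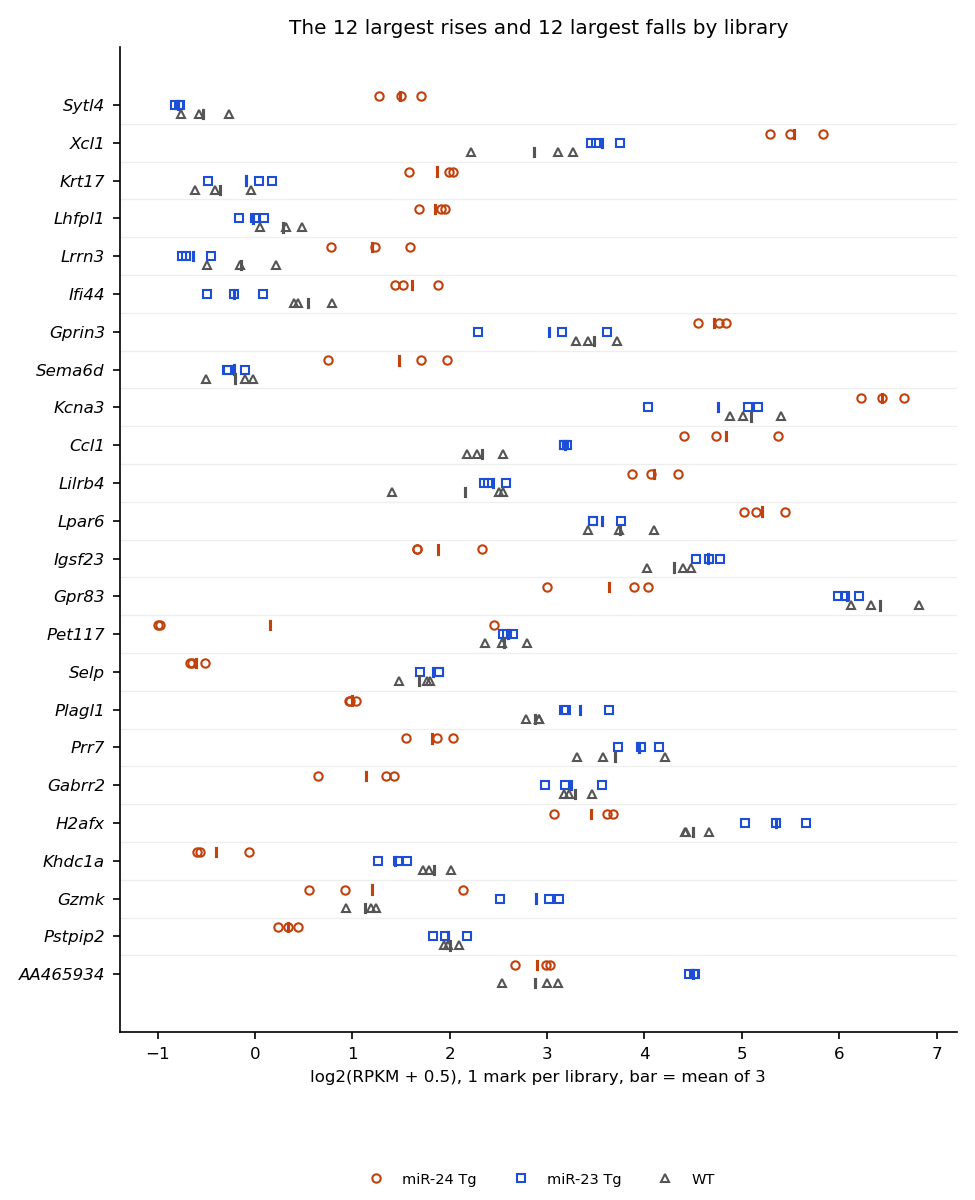
The 12 largest rises (top) and 12 largest falls among called genes, with log2(RPKM + 0.5) on the x axis, 1 mark per library and a bar for the mean of 3. For most genes the miR-23 Tg squares sit with the WT triangles and the miR-24 Tg circles stand apart; AA465934 and Gzmk show the opposite, and Pet117 has a single miR-24 Tg library at the level of the other groups.

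Treg identity genes were split. Of 32 tested, 3 were higher (9.38%), 7 were lower (21.9%) and 22 did not pass. Over all tested genes 7.37% were higher and 6.49% lower, and every list count below is to be set beside these shares. The median log2 difference of the list was -0.01, equal to the -0.01 of all tested genes. Gpr83, Plagl1 and Ecm1 fell most. Folr4, a folate receptor family protein used as a Treg and anergy marker, averaged 393 against 622 RPKM (-0.66, adjusted p = 0.0144), and Swap70, a guanine nucleotide exchange factor, 14.1 against 24.6 RPKM (-0.78, adjusted p = 0.00116). Among the genes that were higher, Gpr15, the receptor that guides T cells to the colon, was at 21.7, 21.4 and 15.2 RPKM against 6.82, 5.59 and 5.28 RPKM (1.63, adjusted p = 0.00104). Ikzf2, the transcription factor Helios, averaged 98.9 against 69.8 RPKM (0.52, adjusted p = 0.0338) and Nrp1, neuropilin-1, 77.9 against 51.1 RPKM (0.60). Helios lost its call in 9 settings. Ctla4 was at 359 to 676 RPKM in miR-24 Tg and 427 to 495 RPKM in miR-23 Tg, so its groups overlapped (-0.02, limma adjusted p = 0.971). Without library 1 of miR-24 Tg, or library 1 of miR-23 Tg, 1 gene of the list was higher and 4 were lower, and without library 2 of either group 1 was higher.

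About 1 in 3 effector Treg genes was higher in miR-24 Tg. Of 36 tested, 12 were higher (33.3%, against 7.37% of all tested genes), none was lower and 24 did not pass, with a median log2 difference of 0.58. The costimulatory receptor Icos was at 164, 171 and 160.2 RPKM against 109.5, 113.9 and 110.0 RPKM (0.57, SE 0.11, limma adjusted p = 0.00405), above the 88.9 ± 4.15 RPKM of WT (SD, n = 3). Fgl2, a secreted suppressive factor, was at 29.0, 21.4 and 19.3 RPKM against 8.27, 8.09 and 10.1 RPKM (1.33, adjusted p = 0.000354). Pdcd1, which encodes the inhibitory receptor PD-1, was at 76.4, 67.0 and 68.5 RPKM against 40.6, 36.8 and 32.2 RPKM (0.94, adjusted p = 0.00116). The groups did not overlap for any of these 3 genes.

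Among the other called members, Itgb1, the integrin beta-1 chain, averaged 138 against 73.5 RPKM (0.90), S100a6, a calcium-binding protein, 179 against 77.9 RPKM (1.20) and Ahnak, a large scaffold protein, 76.8 against 37.4 RPKM (1.03). Maf, a transcription factor of effector T cells, averaged 87.5 against 55.5 RPKM (0.63), and Entpd1, the ectonucleotidase CD39, 15.2 against 9.41 RPKM (0.66). The IL-33 receptor gene Il1rl1 passed narrowly (0.87, adjusted p = 0.0496) and lost its call in 12 settings. Il10 was at 30.0, 41.9 and 17.5 RPKM against 20.6, 23.6 and 27.2 RPKM and did not pass (0.24, adjusted p = 0.78), nor did Klrg1 (0.14), Lag3 (-0.16) or Gata3 (-0.19). Without library 1 of miR-24 Tg 6 of the 36 were called higher, at a median of 0.52, and without library 2 the count was 8, at 0.51. Without library 1 or 2 of miR-23 Tg the counts were 7 and 6. The summed level of the list was 2467 to 2861 RPKM in miR-24 Tg, 1849 to 1867 RPKM in miR-23 Tg and 1571 to 1714 RPKM in WT.

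The list of suppression mediators shares genes with this one. Of 21 tested, 6 were higher (28.6%, against 7.37% of all tested genes) and none lower, with a median of 0.37. Beside Fgl2, Pdcd1, Entpd1 and Nrp1 they were Tnfsf10, the death ligand TRAIL, at 30.2 against 18.3 RPKM on average (0.71, adjusted p = 0.00395), and Prf1, perforin, at 4.79 against 2.52 RPKM (0.80, adjusted p = 0.0313, lost in 6 settings). Tgfb1 (-0.23) and Ebi3 (-0.15) did not pass.

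Of 8 tested chemokine ligands, 3 (37.5%, against 7.37% of all tested genes) were higher, namely Xcl1, Ccl1 and Ccl5. None was lower, and the median log2 difference was 0.85, the highest of the lists. That median was 0.52 when library 1 of miR-24 Tg was left out, equal to the effector Treg list, and 2 ligands were called. Ccl5, a chemokine of activated T cells, was at 95.9, 78.2 and 64.5 RPKM against 34.7, 35.9 and 24.7 RPKM (1.31, adjusted p = 0.0229, lost in 5 settings), and WT averaged 17.4 RPKM. The ligands summed to 181.6 to 199.8 RPKM in miR-24 Tg, 75.6 to 89.6 RPKM in miR-23 Tg and 32.7 to 63.6 RPKM in WT, so the 3 groups did not overlap. Of 27 chemokine and migration receptors, 7 were higher (25.9%), 1 was lower (3.7%, against 6.49% of all tested genes) and 19 did not pass, at a median of 0.44. With library 1 of miR-24 Tg left out, 3 receptors were higher and none lower, at 0.37, and without library 1 or 2 of miR-23 Tg 4 and 3 were higher. Ccr2 was at 36.5, 23.7 and 16.9 RPKM against 8.62, 10.1 and 10.0 RPKM (1.32), and Ccr4 averaged 46.2 against 26.9 RPKM (0.75) and Ccr3 2.15 against 0.42 RPKM (1.46). Ccr7, which keeps T cells in lymph nodes, was the one that fell, at 111.5, 151.5 and 127.1 RPKM against 187, 183 and 180.1 RPKM (-0.50, adjusted p = 0.0193, lost in 5 settings).

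T helper programmes were read from further lists. Of 19 tested Th1 genes, 5 were higher (26.3%, against 7.37% of all tested genes) and none lower, at a median of 0.38. The count was 3 without library 1 of miR-24 Tg, and also without library 1 or 3 of miR-23 Tg. Both IL-18 receptor chains rose: Il18r1 was at 78.8, 111.3 and 75.6 RPKM against 30.1, 27.6 and 38.8 RPKM (1.44, limma adjusted p = 0.000851), and Il18rap averaged 11.5 against 4.47 RPKM (1.28, adjusted p = 0.0049). Stat4, which carries IL-12 signals, averaged 59.2 against 45.5 RPKM (0.38). Tbx21, the Th1 transcription factor, did not differ beyond the spread, with 6.21 ± 0.895 against 6.00 ± 0.47 RPKM (SD, n = 3; 0.04, adjusted p = 0.94). WT averaged 2.91 RPKM. The cytokine Ifng overlapped between groups (0.09).

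Of 18 tested Th17 genes, 3 were higher at a median of 0.47, among them Maf and Tmem176a, and 5 without library 3 of miR-24 Tg. Tmem176a, a transmembrane protein, was at 41.9, 38.3 and 23.3 RPKM against 15.8, 15.6 and 13.9 RPKM, without overlap (1.12, adjusted p = 0.0423), and lost its call in 8 settings. Of 11 tested Th2 genes, 3 were higher (Ccl1, Ccr4 and Il1rl1) at a median of -0.01, and 1 without library 1 of miR-24 Tg or library 2 of miR-23 Tg. Of 14 follicular T cell genes 2 were higher (Icos and Pdcd1) at 0.05, a share of 14.3% against 7.37% of all tested genes. The same gene counts in every list that holds it, so these counts are not separate results. Il21, a follicular helper cytokine, leaned the other way without passing, at 4.26 against 8.78 RPKM on average (-0.99, adjusted p = 0.0736).

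**Figure D4:**
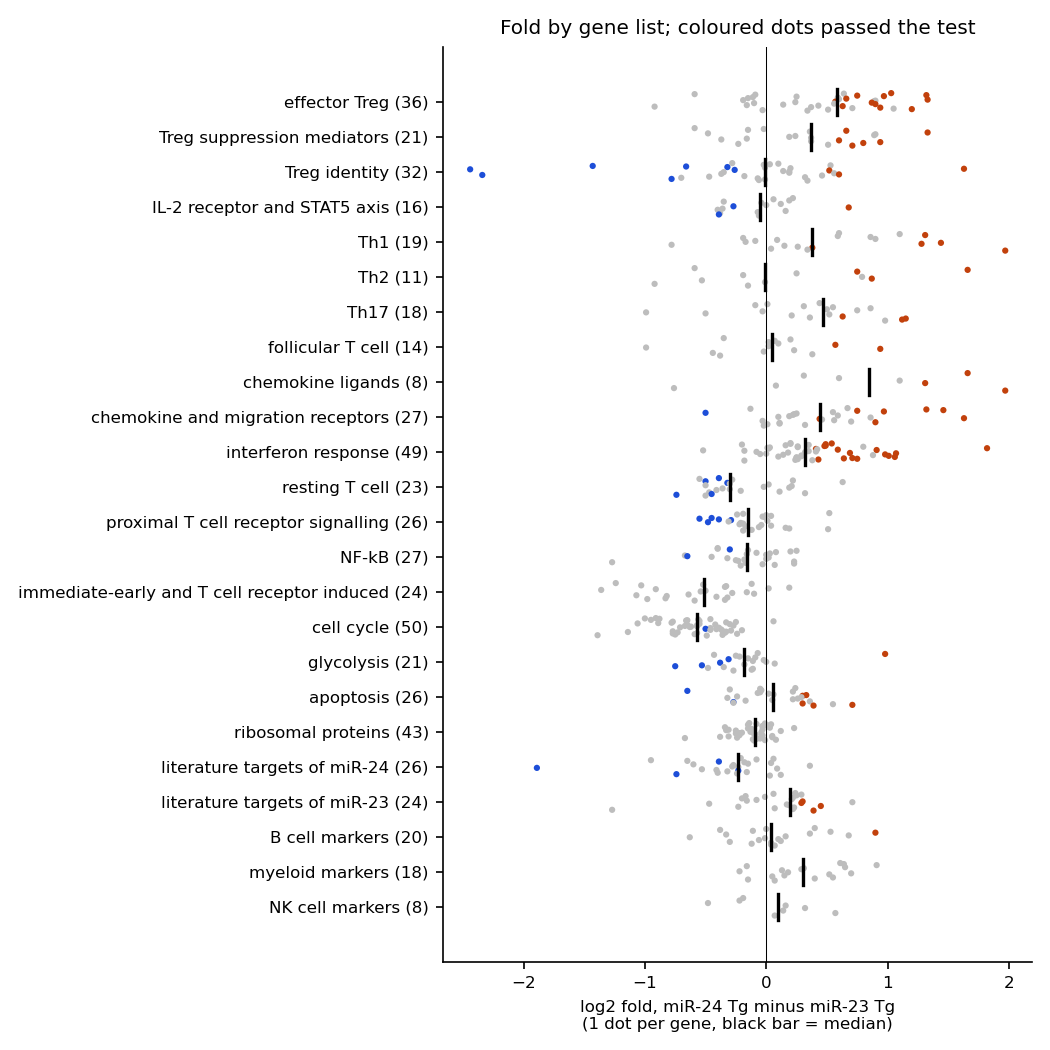
Each dot is a tested gene of the list named at the left (number tested in brackets), placed by its log2 difference, miR-24 Tg minus miR-23 Tg, with a black bar at the list's median; orange dots were called higher and blue dots lower. The effector Treg, chemokine and interferon lists have orange dots and no blue dots save Ccr7, and the cell cycle list lies almost wholly below 0 with a single called gene.

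About 1 in 3 interferon-response genes was higher in miR-24 Tg. Of 49 tested, 17 were higher (34.7%, against 7.37% of all tested genes), none was lower and 32 did not pass. In 42 the log2 difference was positive, and the median of the list was 0.32. Ifit2, an antiviral RNA-binding protein, was at 21.7, 20.4 and 24.4 RPKM against 14.7, 13.2 and 15.8 RPKM (0.59, SE 0.10, limma adjusted p = 0.00175). Irgm2, an immunity-related GTPase, was at 69.6, 37.6 and 57.2 RPKM against 25.7, 26.4 and 23.1 RPKM (1.07, adjusted p = 0.00498), and Gbp6, a guanylate-binding protein, averaged 28.01 against 19.8 RPKM (0.49, adjusted p = 0.00279). These groups did not overlap, but library 2 of miR-24 Tg was the lowest of its group for each of the 3 genes.

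For 16 of the 17 called interferon-response genes the WT mean lay between the means of the 2 groups, as it did for 667 (78.6%) of all 849 genes called higher. None of the 17 was called between miR-23 Tg and WT, and 4 were called between miR-24 Tg and WT. Oas2, which senses double-stranded RNA, averaged 7.11 RPKM in miR-24 Tg, 5.32 in WT and 3.27 in miR-23 Tg (1.01, adjusted p = 0.00656), and Samd9l, an antiviral restriction factor, 87.1, 73.1 and 51.1 RPKM (0.75, adjusted p = 0.00726). The signalling gene Stat2 averaged 35.2, 30.3 and 25.9 RPKM (0.43, adjusted p = 0.0287). Irf7 (0.32, adjusted p = 0.291) and Isg15 (adjusted p = 0.993) did not pass. The summed list overlapped between groups, at 2765 to 3553 RPKM in miR-24 Tg and 2623 to 3001 RPKM in miR-23 Tg. Without library 1 of miR-24 Tg 8 of the 49 were called higher, at a median of 0.22. Without library 2 the count was 18, at 0.39, and without library 3 it was 10; without libraries 1, 2 and 3 of miR-23 Tg in turn it was 9, 10 and 11.

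Some resting T cell and proximal T cell receptor genes were lower, and none was higher. Of 23 resting T cell genes, 5 were lower (21.7%, against 6.49% of all tested genes) and 18 did not pass, at a median of -0.30. Tcf7, the transcription factor TCF-1, was at 164.2, 203.1 and 177.5 RPKM against 333, 297 and 279.7 RPKM (-0.74, SE 0.12, limma adjusted p = 0.00144), with WT at 279.4 ± 9.74 RPKM (SD, n = 3). It holds 1 miR-24 site and was on the list of literature targets of miR-24. Foxo1, which maintains the naive state, averaged 55.6 against 69.6 RPKM (-0.32, adjusted p = 0.0392, lost in 7 settings), and Ccr7, Actn1 and Sidt1 were the other members called. Lef1 (-0.30, adjusted p = 0.102), Klf2 (-0.36) and S1pr1 (0.11) did not pass. Without library 1 of miR-24 Tg 1 resting T cell gene was called lower, at a median of -0.29, as was 1 without library 3 of miR-24 Tg or library 1 of miR-23 Tg.

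Of 26 proximal signalling genes, 5 were lower (19.2%, against 6.49% of all tested genes) and 21 did not pass, at a median of -0.15. With 1 library left out, 4 to 6 were lower. Lck, the kinase that starts receptor signalling, was at 343, 360.1 and 377 RPKM against 512, 534 and 462 RPKM (-0.48, adjusted p = 0.0033). Csk, which restrains Lck, averaged 171.2 against 224.8 RPKM (-0.39, adjusted p = 0.00367). The surface receptors Cd5 and Cd6, which dampen the signal, averaged 217.3 against 297.7 RPKM (-0.45) and 157.9 against 231.0 RPKM (-0.55), and Fyn was lower by a difference of -0.29. The groups did not overlap for any of the 5, and miR-23 Tg differed from WT by -0.16 to 0.04 for Lck, Cd5, Cd6 and Csk. Cd3e (0.04, adjusted p = 0.846) and Cd2 (0.08) did not differ beyond their spread.

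**Figure D5:**
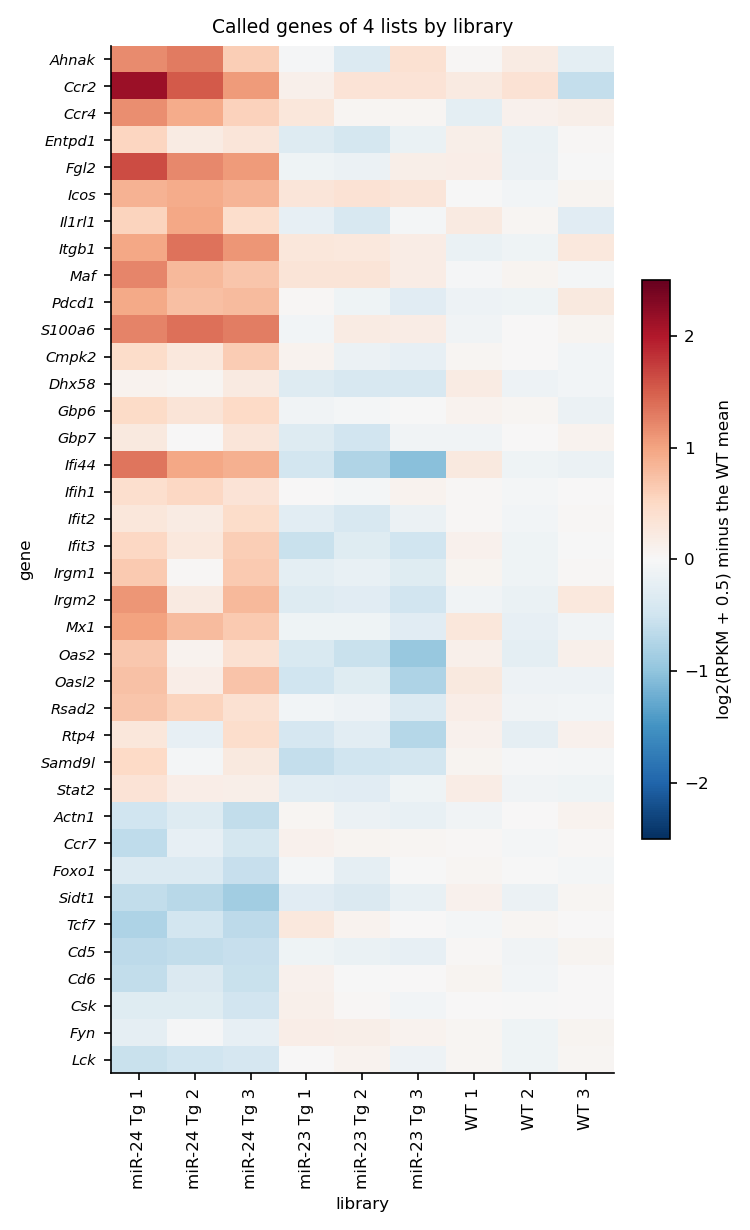
Rows are, from top to bottom, called genes of the effector Treg, interferon response, resting T cell and proximal T cell receptor lists, and columns the 9 libraries; colour is log2(RPKM + 0.5) minus the WT mean of the gene. The miR-24 Tg columns are mostly red in the upper and mostly blue in the lower block, whereas miR-23 Tg is close to WT for the effector genes and below WT for most interferon genes.

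Cell cycle genes leaned lower in miR-24 Tg without passing the test. Of 50 tested, 49 had a negative log2 difference and the median was -0.57, but 1 gene was called, the replication helicase subunit Mcm2, at 36.7, 32.8 and 34.6 RPKM against 52.8, 49.3 and 45.8 RPKM (-0.50, limma adjusted p = 0.0164). The proliferation marker Mki67 was at 20.9, 12.5 and 25.1 RPKM against 24.9, 22.3 and 25.7 RPKM (-0.36, adjusted p = 0.494), with 9.31 ± 3.22 RPKM in WT (SD, n = 3). Plk1, a mitotic kinase, averaged 3.79 against 8.58 RPKM (-1.14, adjusted p = 0.0752). The list summed to 741.9, 601.5 and 949.1 RPKM in miR-24 Tg, 992.8 to 1076 RPKM in miR-23 Tg and 494 to 700.8 RPKM in WT. Library 2 of miR-24 Tg was the lowest, and without it the median was -0.28 and no cell cycle gene was called, beside 660 genes higher and 552 lower over all genes.

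Immediate-early genes varied more within miR-24 Tg than within miR-23 Tg. None of the 24 tested was called, at a median of -0.51. Fos was at 116.5, 1003 and 197.6 RPKM in miR-24 Tg and 515 to 581 RPKM in miR-23 Tg (-0.91, adjusted p = 0.498), and Tnfaip3, an NF-kB feedback inhibitor, at 81.0, 791 and 194.8 RPKM against 507 to 663 RPKM (-1.27, adjusted p = 0.368). Library 2 was the high one in both cases and lay above every miR-23 Tg library. The 16 dissociation and stress genes had no call and a median of -0.39. Without library 2, the median of the immediate-early list was -0.96 and that of the stress list -0.72, with 0 and 3 genes called lower. In WT the immediate-early sum also ranged from 2596 to 5040 RPKM, so the spread was not confined to the transgenic groups.

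Among metabolic genes, the calls were mostly in glycolysis. Of 21 glycolysis genes, 4 were lower (Hk1, Pfkl, Pgam1 and Pgk1) and 1 higher (Aldoc), at a median of -0.18. These shares were 19% and 4.76%, against 6.49% and 7.37% of all tested genes. With 1 library left out, 1 to 4 were lower, the fewest without library 3 of miR-24 Tg or library 1 of miR-23 Tg. Pfkl lost its call in 10 settings. Hexokinase Hk1 averaged 39.9 against 49.5 RPKM (-0.31, adjusted p = 0.0171) and Aldoc, an aldolase, 7.81 against 3.71 RPKM (0.98, adjusted p = 0.00484). Pgk1 (-0.75) and Pgam1 (-0.53) were at 3.97 and 1.31 RPKM in miR-24 Tg, low for such enzymes; both have many processed copies in the mouse genome, so their reads may be counted elsewhere and their values are uncertain. Of 26 sterol and fatty acid synthesis genes 1 was higher, Hsd17b7 (0.58, lost in 7 settings), at a median of 0.10. None of 43 ribosomal protein genes was called, at a median of -0.09, and none of 8 Gimap GTPase genes, at 0.10.

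Of 26 apoptosis genes, 5 were higher (19.2%) and 2 lower (7.69%) at a median of 0.06, against 7.37% and 6.49% of all tested genes. With 1 library left out, 2 to 5 were higher and 0 or 1 lower, the fewest higher without library 1 of miR-23 Tg. The caspase inhibitor Xiap was at 29.3, 27.1 and 29.0 RPKM against 21.3, 21.2 and 22.3 RPKM (0.39, adjusted p = 0.00763), and the death-promoting genes Bid (0.30) and Tnfsf10 (0.71) were higher as well. Bbc3, which encodes the death-promoting protein PUMA, fell (-0.65, adjusted p = 0.041), as did Mcl1, a survival factor on which Treg cells depend, at 210.5 against 253.9 RPKM on average (-0.27, adjusted p = 0.0249, lost in 5 settings). Bcl2l11, the gene of the death promoter Bim, holds 2 miR-24 sites and did not pass (0.06, adjusted p = 0.845). In the IL-2 receptor and STAT5 list, 1 of 16 was higher (the cytokine Osm, 0.68) and 2 were lower (Stat5a, -0.39, and Mcl1), at a median of -0.05. In the TGF-beta pathway 1 of 22 was higher and 1 lower, Smad5 (0.45) and the repressor Ski (-0.36), at 0.03. In both lists, calls were lost when single libraries were left out, to 0 in each direction without library 1 of miR-23 Tg.

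Of 27 NF-kB genes 2 were lower, Nfkbib, an inhibitor of NF-kB (-0.65, limma adjusted p = 0.00608), and Birc3, a ubiquitin ligase (-0.30, adjusted p = 0.0431, lost in 8 settings), both with 1 miR-24 site, at a median of -0.16. That share, 7.41%, was near the 6.49% of all tested genes called lower. Of 22 costimulatory and inhibitory receptors, 4 were higher, at a median of 0.22: Icos, Pdcd1, Cd200r1, an inhibitory receptor at 30.9 against 16.7 RPKM on average (0.87, adjusted p = 0.0088), and Cd226 (0.39, adjusted p = 0.0488, lost in 10 settings). None of 7 Ly6 family genes was called, although Ly6c2 was at 19.8, 8.97 and 14.96 RPKM against 5.32, 6.23 and 3.36 RPKM (1.43, adjusted p = 0.0547).

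Genes reported elsewhere as targets were read from lists compiled from general knowledge of the field, which are not complete. Of 26 tested miR-24 targets, 4 (15.4%, against 6.49% of all tested genes) were lower, namely H2afx, Tcf7, Cdk4 and Mxi1. None was higher and the median was -0.23. Cdk4, a cell cycle kinase, averaged 106.2 against 139.1 RPKM (-0.39, adjusted p = 0.0293, lost in 5 settings) and Mxi1, a Myc antagonist, 6.21 against 7.35 RPKM (-0.23, adjusted p = 0.0493, lost in 14 of the 17 settings). With 1 library left out 2 or 3 of the list were lower, the smaller count without library 1 of miR-24 Tg or library 1 or 2 of miR-23 Tg. Of 24 tested miR-23 targets, 4 (16.7%, against 7.37% of all tested genes) were higher, among them Ppif, Smad5 and Xiap. None was lower and the median was 0.20. A single gene was higher without library 1 of miR-24 Tg, or library 1 or 2 of miR-23 Tg, and without library 2 of miR-24 Tg 2 were higher and 1 lower; without library 3 of miR-23 Tg 2 were higher. Smad5 lost its call in 7 settings. Ppif, the mitochondrial cyclophilin D, was at 25.9, 23.98 and 22.5 RPKM against 19.9, 18.6 and 20.2 RPKM (0.30, adjusted p = 0.0409, lost in 10 settings), without overlap, and WT was level with miR-24 Tg at 24.6 RPKM. Ppif, Smad5 and Xiap each hold 2 miR-23 sites. Fas, a death receptor with 1 miR-23 site, did not pass (-0.17, adjusted p = 0.163).

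Of 16 genes of microRNA processing and silencing, 3 were higher and none lower, at a median of 0.11. Dgcr8, the partner of Drosha in cutting primary microRNAs, was at 21.95, 21.0 and 20.0 RPKM against 17.1, 16.3 and 16.2 RPKM (0.34, adjusted p = 0.0058). Tnrc6b, a scaffold of the silencing complex that holds 2 miR-23 sites and 1 miR-24 site, averaged 19.8 against 11.8 RPKM (0.72, adjusted p = 0.0222), and Prkra, a Dicer partner, 7.22 against 4.80 RPKM (0.55, adjusted p = 0.0272). Tnrc6b and Prkra each lost their call in 5 settings, and without library 1 of miR-24 Tg or library 1 of miR-23 Tg 1 gene of the list was called higher.

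Few markers of other cells were called. Of 20 B cell markers 1 was higher, Cd72, at 40.6, 38.8 and 39.6 RPKM against 17.4, 21.6 and 24.6 RPKM (0.90, limma adjusted p = 0.00766), with 35.3 RPKM in WT, and the median of the list was 0.04. The B cell receptor component Cd79a was at 12.5, 2.32 and 3.33 RPKM in miR-24 Tg and 5.46 to 6.37 RPKM in miR-23 Tg. No myeloid marker of 18 was called, at a median of 0.30, with Ctss, a lysosomal protease, at 206.5 to 272.4 RPKM and Cst3, a protease inhibitor, at 85.6 to 131 RPKM in the 6 libraries. Csf1r was at 8.79, 0.292 and 0.801 RPKM against 0.486 to 1.23 RPKM. Without library 1 of miR-24 Tg the median of the myeloid list was -0.35 and that of the B cell list -0.55. No NK cell marker of 8 was called (median 0.10), nor any of 6 erythroid and platelet markers (-0.14). Among 8 plasma cell markers Derl3 was lower (-0.87, adjusted p = 0.0323), with its call lost in 8 settings, among them each library left out, and among 7 CD8 T cell markers Gzmk. No list of other cells had a gene at 0 in all 6 libraries. Adding the mean log2(RPKM + 0.5) of the B cell markers to the model gave 861 genes higher and 758 lower. The same mean of the myeloid markers gave 817 and 749. That of the cell cycle genes gave 801 higher and 927 lower, holding 602 of the 849 and 556 of the 748 genes called without it.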

How the data were processed

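RNA kept with its small RNAs from sorted Treg cells was made into TruSeq libraries and sequenced on a HiSeq instrument, per the labels' protocols. The authors deposited 1 table of RPKM values, holding 18 libraries as columns; STAR 2.2.0c, HOMER and the build mm10 (GRCm38) are named per the submitters' processing notes, and the annotation is not given in the sources used here. Read counts were not used here. Depth, estimated from the steps between low RPKM values, was 20.32 to 29.18 megareads in the 6 libraries, and is an estimate only. Of 23953 entries, 4 with a repeated symbol were left out and 27 had symbols turned into dates. GENCODE held the symbol itself for 22642 entries, and a synonym served for 894.

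Groups came from the sample titles. Genes with at least 1 RPKM in 3 or more libraries were tested on log2(RPKM + 0.5) with limma 3.58.1 (mean-variance trend, all 18 libraries, 12 residual and 2.26 prior degrees of freedom; R 4.3.3), two-sided, with Benjamini-Hochberg adjustment over 11520 genes. The script was tested on simulated data. Gene lists and site classes have counts and medians and no test. The members, the 39 lists and the naming rule were chosen with earlier results of these data known. Named were the 12 largest rises and falls among called genes without overlap (predicted genes, clones, small RNAs and receptor segments left out), 13 panel genes, up to 4 genes per list and up to 6 site genes per microRNA by smallest p; a few further list members are given as examples chosen after their values were seen. Alternatives were the pseudocount (0.1 and 1), the filter, the scaling, the groups in the model, a replicate block, covariates for B cell, myeloid and cell cycle genes, the 8-base site, and each library left out; sex as a covariate and miR-27 sites were added after seeing the data. Some genes of the lists are not reported here and are left out of the plots of single genes.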

Additional observations from a re-analysis of the deposited data

How the results depend on the processing

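The precision is set by 3 libraries a group and by the spread within all 6 groups of the study, not within the compared groups alone. RPKM values carry no read counts, so low genes are the least certain. Of 93 called genes named by the rule, 58 stayed called in each of the 17 alternative settings that tested them. None of the 93 changed sign where tested. The setting with a mean of at least 5 RPKM left out low genes, which count as kept there. Leaving out 1 library at a time gave 370 to 681 genes higher and 303 to 604 lower, and site medians of -0.083 to -0.048 for miR-24 sites only, 0.092 to 0.134 for miR-23 sites only, 0.026 to 0.075 for both and -0.027 to -0.013 for neither. An arm with a library left out holds 2, which are assumed to vary like the other groups. With a mean of at least 5 RPKM 538 genes were higher, of 8916 tested, and the median without sites was -0.043; with the cell cycle covariate that median was -0.010, and 801 genes were higher and 927 lower. The 8-base match gave -0.024 for miR-24 sites only, near the -0.017 of genes with neither 8-base site. The cause of these shifts was not tested. With the replicate block 954 genes were higher and 909 lower. Same-numbered libraries of the 2 groups did not deviate together (correlations of -0.167 to -0.044, against -0.061 to 0.106 for other pairs). These few correlations cannot show whether a litter, day or batch was shared. With only the 2 groups in the model 573 genes were higher and 501 lower. The sex covariate gave 693 and 596, median-of-ratios scaling 891 and 688, and no filter on low values 748 and 649. Of 663 list medians in these settings, 32 moved by more than the spread between libraries.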
